A study of Rattus norvegicus with 6 samples.

Results

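The genes described here encode subunits of voltage-gated calcium channels, the membrane proteins through which calcium enters heart cells at each beat. They were chosen by name, as 10 of the 32883 genes in the deposited expression table. Of these, 3 encode L-type pores (Cacna1c, Cacna1d and Cacna1s), 2 encode T-type pores (Cacna1g and Cacna1h), 3 encode beta subunits (Cacnb1, Cacnb2 and Cacnb3) and 2 encode alpha2delta subunits (Cacna2d1 and Cacna2d2). RNA was sequenced from myocardial tissue of 3 diet-induced obesity-prone (OP) rats given a high-fat diet and 3 obesity-resistant (OR) rats given standard chow, with 1 library per rat. Both lines have a Sprague Dawley background, the animals entered the protocol at 4 weeks of age, and each diet lasted 12 months. Each group was therefore a different line on a different diet, so that what belongs to the line and what to the diet cannot be told apart, and no lean OP or high-fat OR hearts were analysed here.

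Voltage-gated calcium channels are built around a pore-forming alpha1 subunit. L-type pores open on strong depolarisation and admit the calcium that triggers release from the sarcoplasmic reticulum through the ryanodine receptor, and they work together with a beta subunit inside the membrane and an alpha2delta subunit on its outer face, both of which help bring the pore to the cell surface and set its gating. T-type pores open at more negative voltages, close quickly and need no auxiliary subunit. In rodents they are abundant in the fetal ventricle, become scarce in ventricular muscle after birth, stay in pacemaker and conduction cells, and have been described to return in hypertrophied ventricle.

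Expression is given in counts per 1000000 reads (CPM), which is the deposited value divided by 20. The libraries held 10838184 to 12831577 reads assigned to genes, so that a single read stood for 0.0779 to 0.0923 CPM, and 3 reads, taken as the lower limit of a usable level, for 0.234 to 0.277 CPM. Differences are log2 fold changes, OP relative to OR, with the standard error (SE) from limma, fitted after rescaling by trimmed means (TMM) and adding 0.2 CPM, which draws the changes of weakly expressed genes toward 0. A gene is said to have risen or fallen where the Benjamini-Hochberg adjusted p over all genes tested was under 0.05. CPM is not divided by transcript length, so levels are compared between rats for a given gene and not ranked between genes. The cardiomyocyte markers (7 of 8 listed were in the table, Myh6 and Tnnt2 among them) summed to 31614 to 33620 CPM in OP rats and 31950 to 35042 CPM in OR rats. OP replicate 2 stood apart from the other libraries, with a mean correlation of 0.978 with its own group against 0.982 and 0.983 for the other OP rats and 0.990 for each OR rat.

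Among the calcium channel genes, the pair of T-type pore genes moved in opposite directions. Cacna1h rose and Cacna1g fell in OP rats, and none of the other tested genes passed the threshold. In all, 9 of the 10 genes were expressed highly enough to be tested, reaching 1 CPM in 3 or more libraries, and 2 of the 9 were called, beside 3.38% of the 13445 genes tested. In the upward direction this was 1 gene, beside a background of 1.48%, and in the downward direction 1 gene, beside 1.90%. The log2 fold changes of the 9 genes had a median of -0.045, with 4 positive and 5 negative, and the median over all genes tested was 0.00017. At an unadjusted p under 0.05, limma picked 4 of the 9, beside 22.3% of all genes, with 1 upward (10.3%) and 3 downward (12.0%).

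**Figure D1:**
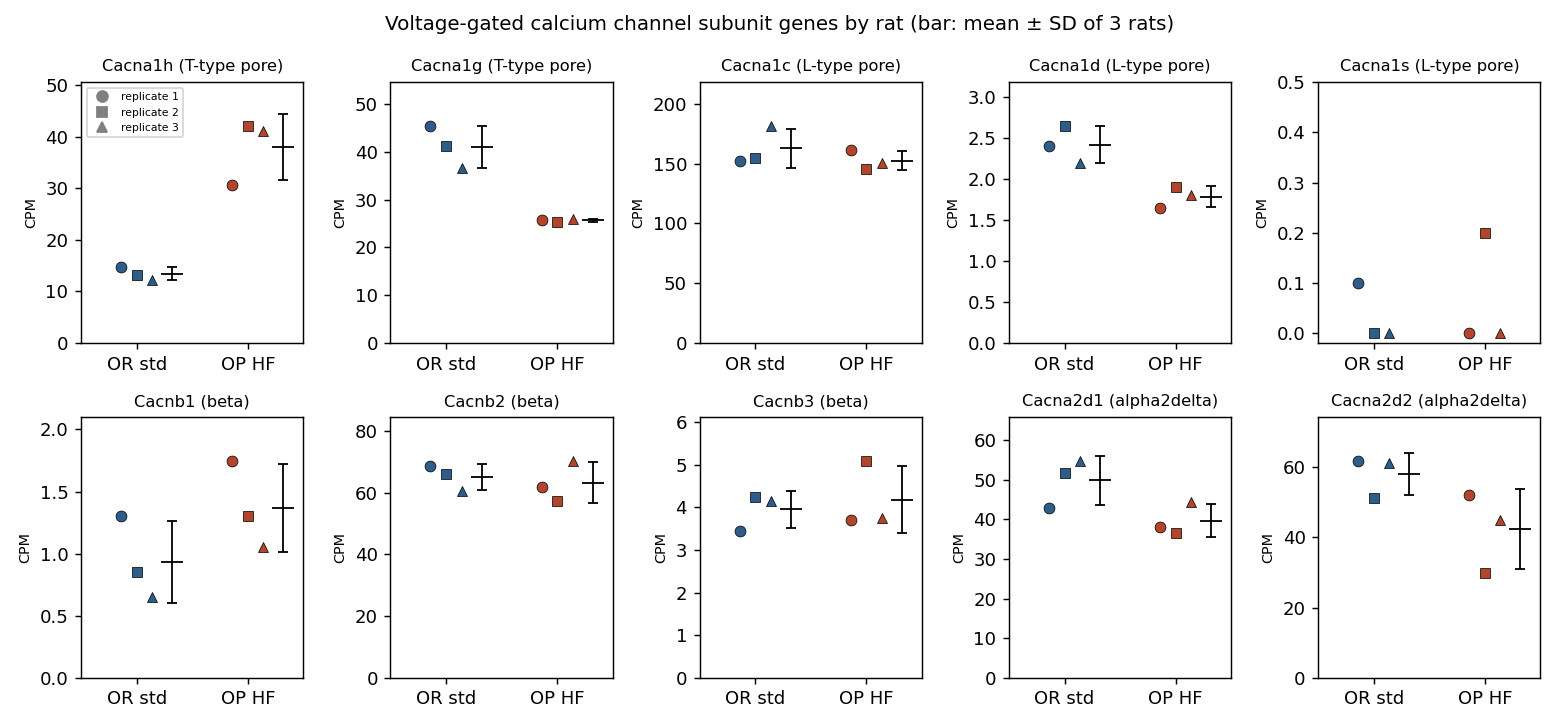
CPM of each of the 10 calcium channel subunit genes (vertical axes, each with its own scale) in the 3 OP high-fat and the 3 OR standard rats, 1 point per rat, with the mean and SD beside the points for every gene but Cacna1s and circles, squares and triangles for replicates 1, 2 and 3. The Cacna1h points lie at 30.55 to 42.1 CPM in OP rats and at 12.25 to 14.7 CPM in OR rats, the Cacna1g points at 25.35 to 25.9 and 36.65 to 45.5 CPM, and most other genes overlap between the groups.

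Cacna1h encodes the T-type pore Cav3.2. Its level was 30.55, 42.1 and 41.15 CPM in OP replicates 1, 2 and 3 and 14.7, 13.25 and 12.25 CPM in OR replicates 1, 2 and 3. The groups were far apart, since the lowest OP rat lay above the highest OR rat by more than the range within either group. The means were 37.9 ± 6.41 CPM in OP and 13.4 ± 1.23 CPM in OR rats (SD, n = 3 each). The log2 fold change was 1.52 (SE 0.15, 95% interval 1.18 to 1.86), which is 2.87-fold, with an adjusted p of 0.00328 from limma, and Cacna1h ranked 23rd by p among all genes tested. These values rested on 140 to 528 reads per library. With each of the 6 libraries left out in turn Cacna1h still passed the threshold, with log2 fold changes of 1.42 to 1.68.

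Cacna1g encodes the related T-type pore Cav3.1, and its levels ran the other way. It stood at 25.75, 25.35 and 25.9 CPM in OP replicates 1 to 3 and at 45.5, 41.2 and 36.65 CPM in OR replicates 1 to 3. The OP rats were close to each other and all lay below the lowest OR rat, while the OR rats spread over a wider range. The means were 25.7 ± 0.284 CPM in OP and 41.1 ± 4.43 CPM in OR rats (SD, n = 3 each), from 280 to 493 reads per library. The log2 fold change was -0.62 (SE 0.10, 95% interval -0.85 to -0.40), which left 0.649 of the OR level, with an adjusted p of 0.0178 from limma. The call needed most of the libraries. Leaving out OP replicate 1 gave an adjusted p of 0.0582 from limma, and leaving out OR replicate 1, 2 or 3 gave 0.0850, 0.0856 or 0.0526. It stayed under the threshold when OP replicate 2 (0.0135) or OP replicate 3 (0.0498) was left out. The log2 fold change lay between -0.70 and -0.56 throughout.

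**Figure D2:**
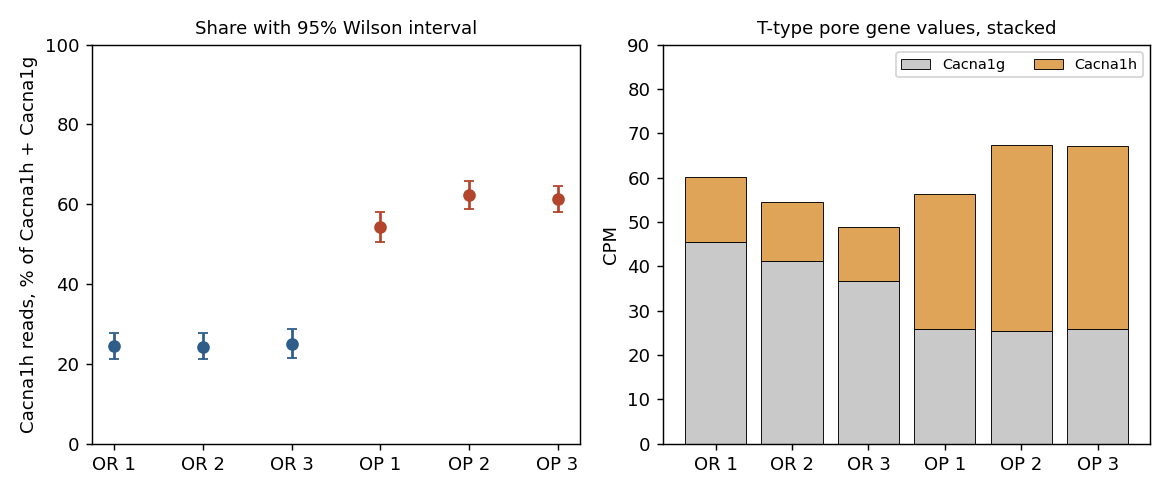
Left, reads of Cacna1h as a percent of the reads of both T-type genes in each of the 6 rats, with 95% Wilson intervals for counting error, which lies at 24.3% to 25.0% in OR rats and at 54.3% to 62.4% in OP rats. Right, CPM of Cacna1g and Cacna1h stacked in each rat, with sums of 48.9 to 60.2 CPM in OR rats and 56.3 to 67.45 CPM in OP rats.

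Because both genes were read in the same library, their ratio does not move with the scaling of that library. Cacna1h over Cacna1g was 1.19, 1.66 and 1.59 in OP replicates 1 to 3 and 0.323, 0.322 and 0.334 in OR replicates 1 to 3, as a ratio of reads that is not divided by length. In OR rats the ratio was nearly the same in all 3 animals although both genes varied in level, and in OP rats it was higher and more spread. Expressed as a share, Cacna1h took 54.3% (95% Wilson interval 50.4% to 58.0%), 62.4% (58.9% to 65.8%) and 61.4% (58.1% to 64.6%) of the T-type reads in OP rats. In OR rats it took 24.4% (21.2% to 27.8%), 24.3% (21.2% to 27.8%) and 25.0% (21.6% to 28.7%), and these intervals cover counting error only. More reads came from Cacna1h than from Cacna1g in every OP rat, and the reverse held in every OR rat. The mean share was 59.4 ± 4.44% against 24.6 ± 0.380% (SD, n = 3 each).

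The log2 ratio was 2.16 higher in OP than in OR rats, with a two-sided exact permutation p of 0.1, which is the smallest that 3 rats against 3 can give (0.25 after Benjamini-Hochberg adjustment over 5 such exact tests of ratios and sums). The sum of both T-type genes was 56.3, 67.45 and 67.05 CPM in OP replicates 1 to 3 and 60.2, 54.45 and 48.9 CPM in OR replicates 1 to 3. The sums overlapped between the groups, at 63.6 ± 6.33 against 54.5 ± 5.65 CPM (SD, n = 3 each, exact permutation p = 0.2, adjusted 0.33). Neither exact test passed a threshold of 0.05, which 3 rats against 3 cannot reach.

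The T-type genes were also set against Cacna1c, the main L-type pore gene of heart muscle, within each library. The ratio of Cacna1h to Cacna1c reads was 0.251 ± 0.0536 in OP and 0.0833 ± 0.0148 in OR rats, and that of Cacna1g to Cacna1c reads was 0.169 ± 0.00784 and 0.256 ± 0.0496 (SD, n = 3 each). These ratios follow from the values above and were not tested.

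Myocardial tissue holds several cell types, and in bulk RNA a change in the number of cells of a type and a change in RNA per cell cannot be told apart. Pacemaker and conduction cells are known to use T-type pores. Their 8 listed markers summed to 125 to 145 CPM in OP rats and 124.9 to 154.3 CPM in OR rats, and most of this sum was Hcn4. The sums overlapped. Of the 5 tested markers, 2 were lower in every OP rat, beside 17.7% of all genes tested. These were Vsnl1 (1.2 to 1.55 CPM in OP, 1.95 to 4.3 CPM in OR rats) and Tbx18 (6.2 to 8.45 and 9.6 to 11.65 CPM). Their log2 fold changes of -1.04 and -0.43 did not pass the test (adjusted p = 0.0997 and 0.157, limma). The other 3 had positive log2 fold changes that did not pass either, at 0.52 for Cntn2, 0.17 for Tbx3 and 0.018 for Hcn4. Isl1 was at 0 in every OP rat and in OR replicates 2 and 3, and at 0.1 CPM in OR replicate 1, under the limit of 3 reads. Atrial markers (6 of 6 in the table) summed to 786 to 2618 CPM in OP rats, highest in OP replicate 2, and 1171 to 1514 CPM in OR rats, and most of this sum was Nppa. Here too the sums overlapped. Of the 5 tested atrial markers, 1 was higher in every OP rat, beside 10.4% of all genes tested. This was Myl7 (221.6 to 283.5 CPM in OP, 114.25 to 207.45 CPM in OR rats), with a log2 fold change of 0.64 (adjusted p = 0.143, limma). Sln, Bmp10 and Myl4 also had positive log2 fold changes, at 0.74, 0.43 and 0.40 (adjusted p = 0.124, 0.767 and 0.383, limma). Nppa had -0.11 (adjusted p = 0.924, limma), so the atrial sum mostly followed the only tested marker with a negative value. Myl7 and Sln had an unadjusted p under 0.05 from limma. The part of these cells in the results for the T-type genes was not tested.

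Some of the other marker lists moved with the group, in full or in part. Schwann cell and neural markers (8 of 8 in the table, with each of the 8 higher in OP rats without overlap, beside 10.4% of all genes tested) summed to 185 to 386 CPM in OP rats and 78.2 to 111 CPM in OR rats, and Sox10 among them was called (adjusted p = 0.0262, limma). Ncam1 made up most of the Schwann cell and neural sum, at 98.5, 290.95 and 131.9 CPM in OP replicates 1 to 3. It was at 73.85, 68.35 and 42.05 CPM in OR replicates 1 to 3 and did not pass the test (adjusted p = 0.0867, limma). Neuroendocrine markers (6 of 6) summed to 5.95 to 11.7 CPM in OP rats and 2.85 to 4.90 CPM in OR rats. Most of this sum was Dbh, which overlapped between the groups (3.55 to 7.6 CPM in OP, 2.1 to 3.75 CPM in OR rats). Chga was at 1.15, 3.1 and 1.65 CPM in OP rats and 0.3, 0.3 and 0 CPM in OR rats. It was called higher in OP rats, with a log2 fold change of 2.49 (adjusted p = 0.0379, limma). With voom (adjusted p = 0.0530) or a pseudocount of 1 (adjusted p = 0.0615, limma) Chga did not pass. Th was at 0 in every OR rat and in OP replicate 3, and did not exceed 0.4 CPM. Chgb, Syp and Snap25 did not exceed 0.95 CPM and overlapped, and Chgb and Snap25 had lower means in OP rats. Endothelial markers (5 of 6 in the table) summed to 1058 to 1272 CPM in OP rats and 827 to 1022 CPM in OR rats. Only Vwf of these 5 was higher in OP rats without overlap, beside 10.4% of all genes tested. It was at 299.6 to 480.75 CPM in OP and 193.35 to 291.3 CPM in OR rats (adjusted p = 0.116, limma). Kdr, Tek, Cdh5 and Tie1 had log2 fold changes of 0.40, 0.37, 0.12 and -0.06, and none passed the test. Adipocyte markers (5 of 5) summed to 543 to 565 CPM in OP rats and 383 to 483 CPM in OR rats. Nearly all of the adipocyte sum was Fabp4, and Adipoq, Plin1, Cidec and Lep did not exceed 3.05 CPM in any library. Smooth muscle and pericyte markers (8 of 8) summed to 767 to 994 CPM in OP rats and 677 to 769 CPM in OR rats, and these sums overlapped. Of the 8, 6 were higher in OP rats without overlap, beside 10.4% of all genes tested. Kcnj8 among them was called higher in OP rats (adjusted p = 0.0201, limma). Myocd went the other way, with a log2 fold change of -0.54 (adjusted p = 0.116, limma), and Myh11 had 0.11 (0.730). Without OR replicate 1 or OR replicate 3, neither Sox10 nor Kcnj8 passed. Fibroblast markers (5 of 6 in the table) summed to 1896 to 4133 CPM in OP rats, highest in OP replicate 2, and 2187 to 2333 CPM in OR rats. The part of these cell types was not tested either.

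In the GRCr8 annotation of RefSeq, Cacna1h lies next to a group of tryptase genes, whose products are proteases of mast cell granules. This neighbourhood was looked at after the values had been seen. Tpsb2 was at 15.3, 8.25 and 14.15 CPM in OP replicates 1 to 3 and 3.9, 2.2 and 3.35 CPM in OR replicates 1 to 3, and it rose by 1.96 on the log2 scale (SE 0.27, adjusted p = 0.0115, limma). Tpsab1 was at 5.35, 5 and 5.85 CPM in OP rats and 2.35, 1.3 and 1.6 CPM in OR rats, and it rose by 1.60 (SE 0.23, adjusted p = 0.0122, limma). For both genes every OP rat lay above every OR rat. Without OR replicate 1 or 3, Tpsb2 had an adjusted p of 0.0523 or 0.0599 from limma, and without OR replicate 2 or 3, Tpsab1 had 0.0535 or 0.0745.

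Tpsg1, the neighbouring gamma tryptase gene, was at 0.95, 1.3 and 1.25 CPM in OP rats and 0.6, 0.35 and 0.3 CPM in OR rats, too low to be tested and without overlap. On the other side of Cacna1h, Tekt4 did not exceed 0.2 CPM, the somatostatin receptor gene Sstr5 was at 0, and Sox8 was at 0.9, 2.9 and 0.2 CPM in OP rats and 0.6, 0.45 and 0.9 CPM in OR rats. A list of 8 mast cell genes, added after the values had been seen and holding both tryptase genes, summed to 35.15 to 57.0 CPM in OP rats and 32.25 to 38.0 CPM in OR rats. In that list the chymase gene Cma1 had a log2 fold change of 1.09 (adjusted p = 0.0839, limma) and the carboxypeptidase gene Cpa3 of 0.84 (0.112). Kit, the receptor that mast cells need, had -0.53 (0.112). It was the largest part of the sum in every library, at 10.9 to 18.1 CPM in OP rats and 21.15 to 22.65 CPM in OR rats. Hdc had a log2 fold change of -0.059 (adjusted p = 0.961, limma). Fcer1a and Ms4a2 were too low to be tested, and both overlapped between the groups. Whether reads were counted by strand is not given. Whether Cacna1h overlaps any of these genes in the authors' build was not checked, so sharing of reads could not be examined. The part of the neighbouring genes and of mast cells in the Cacna1h result was not tested.

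**Figure D3:**
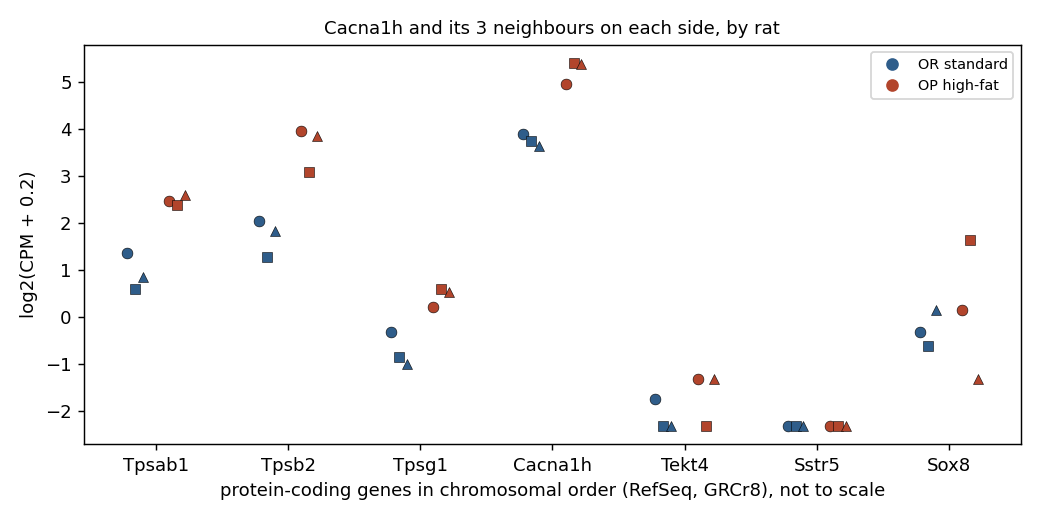
Log2 of CPM plus 0.2 in each of the 6 rats for Cacna1h and 3 protein-coding genes on each side of it, in their GRCr8 order and not to scale. Tpsb2 (8.25 to 15.3 CPM in OP, 2.2 to 3.9 CPM in OR rats) and Tpsab1 (5 to 5.85 and 1.3 to 2.35 CPM) lie higher in OP rats as Cacna1h does, and circles, squares and triangles are replicates 1, 2 and 3.

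The L-type pore genes showed no call. Cacna1c encodes Cav1.2, which carries most of the L-type current of ventricular muscle. It stood at 161.2, 145.65 and 150.2 CPM in OP replicates 1 to 3 and at 152.15, 154.5 and 181.75 CPM in OR replicates 1 to 3. The groups overlapped, and OR replicate 3 was the highest of all. With 1610 to 2083 reads per library this was a precisely counted gene, at 152 ± 7.99 CPM in OP and 163 ± 16.5 CPM in OR rats (SD, n = 3 each). Its log2 fold change was -0.045 (SE 0.09, 95% interval -0.26 to 0.17, adjusted p = 0.811, limma), and without OR replicate 3 it was 0.039.

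Cacna1d encodes Cav1.3, an L-type pore of pacemaker and atrial cells that opens at more negative voltages than Cav1.2. Its level was 1.65, 1.9 and 1.8 CPM in OP replicates 1 to 3 and 2.4, 2.65 and 2.2 CPM in OR replicates 1 to 3, from only 19 to 31 reads per library. All OP rats lay below all OR rats, as 17.7% of all genes tested did in this direction. Its log2 fold change of -0.36 (SE 0.20, 95% interval -0.80 to 0.09) did not pass the test (adjusted p = 0.322, limma). In all, the groups did not overlap for 3 of the 9 calcium channel genes tested, beside 28.1% of all genes, with Cacna1h higher in OP rats (10.4%) and Cacna1g and Cacna1d lower.

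Cacna1s encodes the pore of skeletal muscle, where it acts as the voltage sensor for contraction. It was at 0.2 CPM in OP replicate 2, 0.1 CPM in OR replicate 1 and 0 in the other 4 libraries. These levels came from at most 2 reads in a library, which is under the limit of 3 reads, so no difference was detectable at this depth. Skeletal muscle markers (6 of 8 in the table) summed to 18 to 67.25 CPM in OP rats and 15.95 to 21.6 CPM in OR rats, with OP replicate 2 the highest, and most of that came from Myl1.

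**Figure D4:**
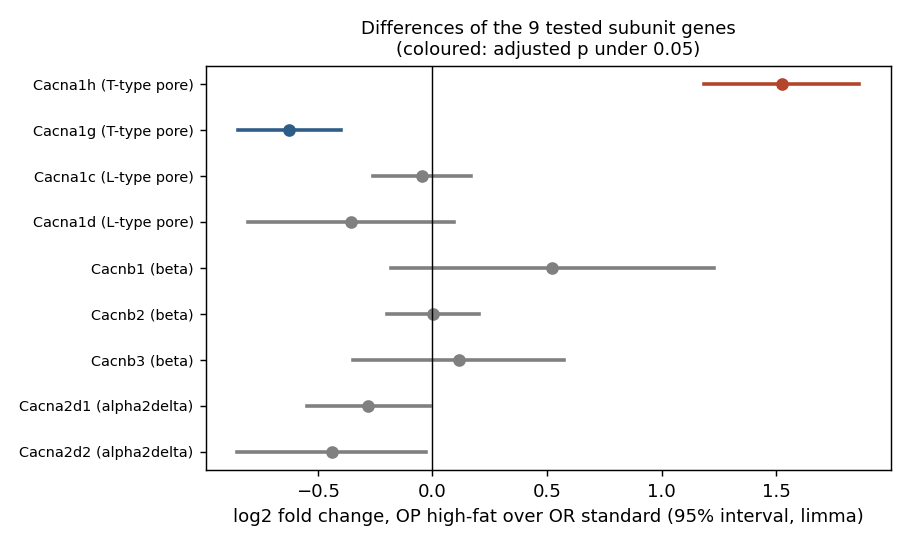
Log2 fold change (OP relative to OR rats) for the 9 tested calcium channel genes, with 95% intervals from limma, grouped by role. Cacna1h (1.52) and Cacna1g (-0.62) passed an adjusted p of 0.05, and the intervals of Cacna2d1 and Cacna2d2 end just below 0 before adjustment.

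The beta subunit genes did not pass the test either. Cacnb2, which encodes the main beta subunit of heart muscle, was at 61.85, 57.4 and 70.4 CPM in OP replicates 1 to 3 and 68.75, 65.9 and 60.65 CPM in OR replicates 1 to 3. The groups lay across each other, with the highest and the lowest value both in OP rats. The means were 63.2 ± 6.61 and 65.1 ± 4.11 CPM (SD, n = 3 each), from 634 to 903 reads per library. A log2 fold change of 0.0015 (SE 0.09) had a 95% interval of -0.20 to 0.20 and an adjusted p of 0.995 from limma.

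Cacnb1, the beta subunit gene of skeletal muscle, was at 1.75, 1.3 and 1.05 CPM in OP rats and 1.3, 0.85 and 0.65 CPM in OR rats. With 7 to 20 reads per library the groups overlapped, and the log2 fold change was 0.52 (SE 0.31, 95% interval -0.18 to 1.23, adjusted p = 0.353, limma). Cacnb3, a beta subunit gene of neurons and smooth muscle, was at 3.7, 5.1 and 3.75 CPM in OP rats and 3.45, 4.25 and 4.15 CPM in OR rats. Its groups overlapped too, and its log2 fold change was 0.11 (SE 0.20, 95% interval -0.34 to 0.57, adjusted p = 0.771, limma). The summed beta subunit level was 68.8 ± 5.84 CPM in OP and 70.0 ± 4.12 CPM in OR rats (SD, n = 3 each, exact permutation p = 0.9, adjusted 0.9).

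Both alpha2delta genes had negative log2 fold changes, with a p under 0.05 before adjustment and not after it. Cacna2d1 encodes alpha2delta-1, the subunit to which gabapentin binds and the usual partner of Cav1.2 in heart muscle. It was at 38.2, 36.5 and 44.45 CPM in OP replicates 1 to 3 and at 43, 51.8 and 54.9 CPM in OR replicates 1 to 3. Only OP replicate 3 and OR replicate 1 crossed over. This gave a log2 fold change of -0.28 (SE 0.12, 95% interval -0.55 to -0.01), with a limma p of 0.0443 that became 0.213 after adjustment.

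Cacna2d2 encodes alpha2delta-2, a related subunit best known from the cerebellum. It was at 52.1, 29.95 and 45.05 CPM in OP replicates 1 to 3 and at 61.95, 51.15 and 61.25 CPM in OR replicates 1 to 3. OP replicate 2 was the lowest by a wide margin, and OP replicate 1 lay just above the lowest OR rat. Its log2 fold change was -0.44 (SE 0.18, 95% interval -0.85 to -0.03), with a limma p of 0.0388 and an adjusted p of 0.199. Without OP replicate 2 the log2 fold change was -0.23.

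Within each library, the alpha2delta genes summed to 90.3, 66.45 and 89.5 CPM in OP replicates 1 to 3 and 104.95, 102.95 and 116.15 CPM in OR replicates 1 to 3. The sums did not overlap, although the values of each gene did. The means were 82.1 ± 13.5 and 108 ± 7.11 CPM (SD, n = 3 each), with an exact permutation p of 0.1, the smallest possible, and 0.25 after adjustment over the 5 tests. The ratio of Cacna2d2 to Cacna2d1 reads was 1.07 ± 0.275 in OP and 1.18 ± 0.234 in OR rats (exact permutation p = 0.6, adjusted 0.75).

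**Figure D5:**
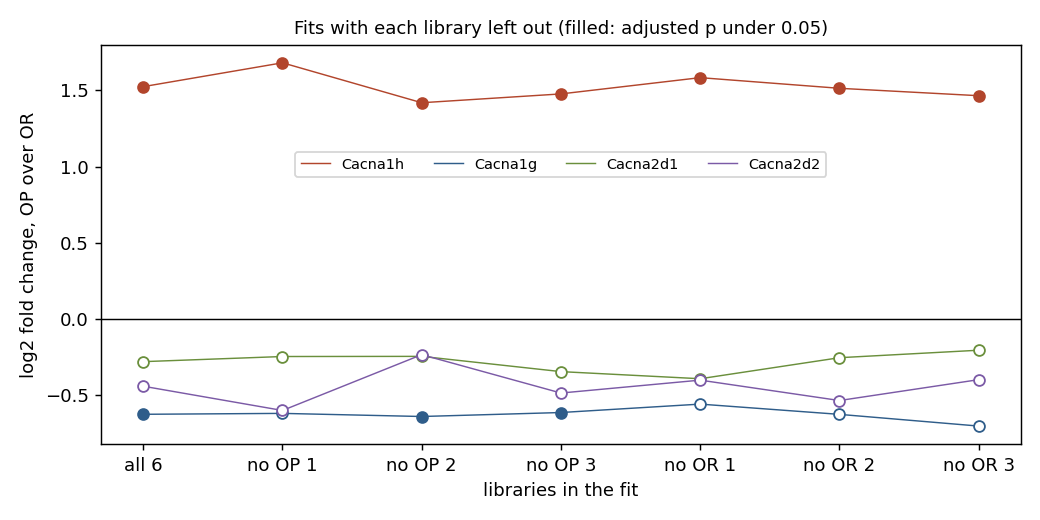
Log2 fold change (OP relative to OR rats) for Cacna1h, Cacna1g, Cacna2d1 and Cacna2d2, with all 6 libraries and with each library left out in turn, filled where the adjusted p from limma was under 0.05. Cacna1h is filled throughout at 1.42 to 1.68, Cacna1g is filled with all libraries and without OP replicate 2 or 3, and Cacna2d1 (-0.39 to -0.20) and Cacna2d2 (-0.60 to -0.23) are open throughout.

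The rest of the voltage-gated calcium channel family was followed as a list of 16 genes, of which 5 were expressed highly enough to be tested. None was called by limma with a trend or by voom. At an unadjusted p under 0.05 limma picked 2, both lower in OP rats (beside 12.0% of all genes in that direction), and the median log2 fold change of the 5 was -0.24. Cacna1a, the P/Q-type pore gene of neurons, was at 19.4, 14.15 and 18.75 CPM in OP replicates 1 to 3 and 23.85, 21.35 and 21.05 CPM in OR replicates 1 to 3. The groups did not overlap, and the log2 fold change was -0.30 (SE 0.13, adjusted p = 0.211, limma).

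Gamma subunits are membrane proteins that accompany calcium channels or glutamate receptors. Among their genes, Cacng4 was at 5.5, 0.75 and 4.45 CPM in OP replicates 1 to 3 and 6.85, 7.95 and 8.65 CPM in OR replicates 1 to 3. OP replicate 2 was far below the others, and all OP rats lay below all OR rats. Its log2 fold change of -1.40 (SE 0.58, adjusted p = 0.204, limma) was -0.61 without OP replicate 2 (adjusted p = 0.0872). Cacng6 had a log2 fold change of -0.24 (adjusted p = 0.492, limma) and Cacng7 of -0.0017 (0.998). Cacna2d3, a further alpha2delta gene, was at 0.95, 3.45 and 0.9 CPM in OP rats and 1.5, 1.7 and 1.25 CPM in OR rats, a log2 fold change of 0.036 (adjusted p = 0.976, limma). The T-type pore gene Cacna1i did not exceed 0.2 CPM in any library, and Cacng2, Cacng3 and Cacng5 were at 0 in all 6.

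Proteins that bind or regulate the channels formed a list of 31 genes, of which 24 were tested. Of these, 1 rose, beside 1.48% of all genes, and 2 fell, beside 1.90%, and the median log2 fold change was 0.054. Calm2 is among the genes for calmodulin, the calcium sensor that is bound to L-type pores and closes them as calcium rises. It was at 200.4, 225.45 and 197.95 CPM in OP replicates 1 to 3 and 133, 117.75 and 126.95 CPM in OR replicates 1 to 3. Every OP rat was well above every OR rat, and Calm2 rose by 0.77 on the log2 scale (SE 0.09, adjusted p = 0.00740, limma), with an adjusted p of 0.0508 without OR replicate 3.

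The genes that fell both encode forms of calcium/calmodulin-dependent protein kinase II, which phosphorylates L-type channels and the ryanodine receptor. Camk2d, the main cardiac form, was at 169.4, 152.35 and 163.55 CPM in OP replicates 1 to 3 and 229.85, 211.85 and 236.6 CPM in OR replicates 1 to 3. The groups were clearly separate, and Camk2d fell by 0.44 on the log2 scale (SE 0.07, adjusted p = 0.0253, limma). Camk2b was at 2.75, 4.75 and 4.25 CPM in OP rats and 10.15, 10.7 and 8.5 CPM in OR rats. It fell by 1.26 (SE 0.22, adjusted p = 0.0264, limma), again without overlap.

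These kinase calls needed most of the libraries. For Camk2d, leaving out OP replicate 1 or 3 gave an adjusted p of 0.0587 or 0.0665 from limma, leaving out OR replicate 1, 2 or 3 gave 0.108, 0.0681 or 0.135, and taking the replicate number as a block gave 0.0516. For Camk2b, leaving out OP replicate 3 gave 0.0530, and leaving out OR replicate 1, 2 or 3 gave 0.115, 0.112 or 0.0951. The 3 calls of the whole list became 1 where OP replicate 3 was left out, 1 where either of OR replicates 1 and 2 was, and 0 where OR replicate 3 was, a fit in which limma called 72 of all genes. Rrad, a small G protein that binds beta subunits and holds back L-type current, had overlapping groups, at 272.35, 296.05 and 315.75 CPM in OP rats and 262.6, 299.2 and 304.85 CPM in OR rats (adjusted p = 0.664, limma). The ryanodine receptor gene Ryr2 overlapped as well, at 1526.6, 1091.2 and 1529 CPM in OP rats and 1447.8, 2101.6 and 1944.1 CPM in OR rats (adjusted p = 0.252, limma). Rrad and Ryr2 were named after their values were seen.

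Factors that have been tied to transcription of calcium channel genes formed a list of 12, all of them tested. Of these, 1 fell, beside 1.90% of all genes, and none rose, beside 1.48% (1 was higher at an unadjusted p under 0.05 from limma), and the median log2 fold change was -0.048. Egr1, a transcription factor of the immediate early response, was at 75.75, 72.05 and 86.55 CPM in OP replicates 1 to 3 and 258.2, 174.1 and 144.95 CPM in OR replicates 1 to 3. All OP rats were below all OR rats, and Egr1 fell by 1.21 on the log2 scale (SE 0.18, adjusted p = 0.0158, limma). Its adjusted p was 0.0567 when OP replicate 1 was left out and 0.0681 when OR replicate 2 was. The next smallest p values belonged to the cardiac factor Tbx5 (log2 fold change 0.46, adjusted p = 0.104, limma), the mineralocorticoid receptor gene Nr3c2 (-0.34, 0.295) and the cardiac factor Nkx2-5 (0.23, 0.297), none of which passed.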

How the data were processed

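The authors trimmed paired-end TruSeq reads with Trimmomatic, mapped them to Rnor_6.0 with STAR and counted them per gene with HTSeq. Each deposited value is a score, because the authors brought the gene reads of every library to a total of 20000000 and rounded up, so these are not raw counts. Library totals were recovered from the steps between values, and with them 99.75% to 99.88% of the nonzero values of a library came out, with no tolerance, as whole reads. The replicates are separate rats.

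After division by TMM factors (30% and 5% trimmed) and addition of 4, which is 0.2 CPM, limma 3.58.1 in R 4.3.3 was fitted by group on the log2 scale with a mean-variance trend. It tested the 13445 genes that reached 1 CPM in 3 or more libraries, with Benjamini-Hochberg adjustment over all of them. Wilson intervals and the limit of 3 reads cover counting error only, while limma's intervals rest on the spread between rats. The steps were tested on simulated data.

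The members, lists and tests were chosen with earlier results of these data known. Named genes were the 10 members, called genes and up to 4 genes with the smallest p in each list, and the 5 genes most like Cacna1h and Cacna1g. The chromosomal neighbours and the mast cell list were added after the values had been seen. Listed symbols not in the table were not analysed here. Some members of the lists are not reported by name. Gene order came from GRCr8, which is not the authors' build, so no coordinates are given. Levels per coding length had been planned and were not computed, since no transcript lengths of the authors' build were at hand, and no sequences are shown. The alternatives were median-of-ratios scaling, no rescaling, no filter, a filter of 10 reads in each library, pseudocounts of 1 and 20, voom fitted to recovered reads, a block for the replicate number, robust variances, and each library left out.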

Additional observations from a re-analysis of the deposited data

How the results depend on the processing

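The 9 tested genes gave 134 values under 15 alternatives, of which 124 kept the direction and the side of the threshold. Under the 9 alternatives that kept all libraries, 2 of the genes were called each time, with log2 fold changes of 1.47 to 1.54 for Cacna1h and -0.67 to -0.61 for Cacna1g. Cacnb2 changed sign near 0, at -0.045 without rescaling and -0.0017 where each library had to hold 10 reads, a filter that left Cacnb1 untested. With each library left out, the ranges were -0.060 to 0.045 for Cacnb2, -0.053 to 0.20 for Cacnb3, -0.10 to 0.039 for Cacna1c and -0.70 to -0.56 for Cacna1g, which lost its call in 4 of 6 cases. The number of calls then ranged from 1 to 2 among the calcium channel genes, from 0 to 4 among the channel partners and from 0 to 1 among the transcription regulators. Over all genes it ranged from 58 without OR replicate 1 to 771 without OP replicate 2, the library that stood apart, against 454 with all libraries, and the cause was not tested. The log2 ratio of the T-type genes differed by 2.07 to 2.32. Over all genes 386 were called by voom, 353 with no filter, 378 with at least 10 reads, and 436 and 472 with pseudocounts of 1 and 20.

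The labels do not say whether replicate numbers pair the rats. Same-numbered OP and OR rats had correlations of their deviations of 0.059, 0.075 and 0.127, and the other pairs of -0.170 to 0.079. With so few rats these values cannot settle whether the samples were paired. With the replicate block 270 of all genes were called, and Cacna1h (adjusted p = 0.0145, limma) and Cacna1g (0.0406) were still called, 2 of the calcium channel genes as before, while the channel partners had 2 calls, the transcription regulators 1 and the other channel subunits 0. The T-type log2 ratio stayed at 2.16. Cacna1s, Cacna1d and Cacnb1 were limited by depth, with at most 31 reads in a library.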

Other observations

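The 5 tested genes whose log2 levels followed Cacna1h most closely over the 6 libraries were LOC108348137, Ubtf, Spout1, Endog and Ghitm, with Pearson r of 0.996, 0.995, 0.994, 0.994 and 0.990. All of them had higher mean levels in OP rats, by 1.11-fold for Ubtf, a factor of ribosomal RNA transcription, 1.19-fold for Endog, a mitochondrial nuclease, and up to 1.63-fold for LOC108348137, all smaller than the 2.87-fold of Cacna1h. For Cacna1g they were Araf, Ninj2, Ptp4a1, Zfp113 and AC099449.1, with Pearson r of 0.998, 0.998, 0.996, 0.995 and 0.993, and their OP levels were 0.854 (the kinase gene Araf) to 0.373 (AC099449.1) of the OR levels. The points are 6 libraries in 2 groups and the genes were picked as the best among 13445, so the correlations are a description.

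In the GRCr8 annotation, the genes on either side of Cacna1g were looked at after the values had been seen. Luc7l3, which encodes a splicing factor, was at 47.9, 51.25 and 41.7 CPM in OP replicates 1 to 3 and 83.9, 71.1 and 63.45 CPM in OR replicates 1 to 3, with no overlap. Its log2 fold change of -0.58 did not pass the test (adjusted p = 0.0519, limma). None of the other tested neighbours passed, with log2 fold changes of 0.16 for Ankrd40, -0.32 for Abcc3, -0.63 for Epn3 and -0.03 for Mycbpap and adjusted p from 0.228 to 0.864.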
